A study of Homo sapiens with 6 samples.

Results

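Ribosomal protein processed pseudogenes were examined in HCT116, an established human colorectal cancer cell line. An entry was included when its biotype contained the term processed_pseudogene, its name had the form of a ribosomal protein gene followed by P and a number, and its mean over the 6 libraries was at least 1 FPKM (fragments per kilobase of gene, scaled for each library). Of 58938 entries, 1144 matched the name and biotype, and 86 of these reached the level. Reads were found in at least 1 library for 495 of the 1144, and the other 649 were listed at 0 throughout. The members were thus chosen by their mean FPKM, so their being expressed is a description. The difference between MST3 and vector libraries was not used in the choice.

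The vector group held 3 libraries from cells whose genotype is labelled WT, and the MST3 group held 3 libraries from cells labelled as overexpressing MST3, the serine/threonine kinase that the STK24 gene encodes. All cells were of the same line. The treatment protocol, which is the same text for both groups, describes lipofection of the overexpression plasmid at 60% density, fresh medium at 6 hours and RNA at 30 hours. No source used here gives the promoter of the plasmid or the share of transfected cells. Nothing states that replicates came from separate cultures, so a p-value reflects the spread between these samples alone, and that spread may be technical. STK24 stood at 17.1, 17.4 and 17.4 FPKM with vector and at 63.7, 72.2 and 76 FPKM with MST3, a ratio of means of 4.08. Its log2 difference was 1.97 (SE 0.09), with an adjusted p of 9.98e-04 in limma over all genes. The epithelial markers EPCAM and KRT8 reached 78.7 to 93.9 and 340 to 403 FPKM, whereas the leukocyte marker PTPRC and the endothelial marker CDH5 did not exceed 0.0126 and 0.0283 FPKM. CDX2, an intestinal transcription factor, stood at 2.66 to 4.29 FPKM, and VIL1, another intestinal marker, at 0 to 0.0331 FPKM. Reads recovered from the FPKM values numbered 15289213 to 17708029 per library.

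Ribosomal protein genes encode the protein components of the small (RPS) and large (RPL) ribosomal subunits. Processed pseudogenes are copies of mRNAs that were reverse transcribed and inserted into the genome, so they lack the introns and usually the promoter of the parent gene. Those of ribosomal protein genes form the largest family of processed pseudogenes in the human genome, and many still resemble the mRNA closely enough that short sequencing reads can align to both copies. Throughout, a value for a pseudogene is therefore the number of reads assigned to it in the deposited table. Reads of a parent mRNA and of a near-identical copy are uncertain in their assignment, since no source used here gives the counting program, the strand setting or the treatment of reads with several matches.

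The 86 members belonged to 46 parent genes, with 56 members of large-subunit and 30 of small-subunit genes. There were 24 parents with 1 member and 22 with more. By biotype, 74 were processed pseudogenes, 10 were transcribed processed pseudogenes, and 2 (RPL32P3 and RPL23AP82) were transcribed unprocessed pseudogenes, which the wording of the rule also takes in. Chromosome 12 held 10 members, chromosome 3 held 9 and chromosome 1 held 8. RPS26P6 (1.11 FPKM), RPL36AP43 (1.08 FPKM) and RPL22P2 (1.07 FPKM) lay just above the level required. RPL32P33 (0.984 FPKM), RPS20P4 (0.966 FPKM) and RPS15AP30 (0.962 FPKM) lay just below it.

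The following sequences show how far the members can be told from their parents by letters alone. They were read from GENCODE 29 transcripts on GRCh38 and are given 5′ to 3′ on the strand of the gene. RPS28 encodes a small-subunit protein, and its pseudogene RPS28P7 had the highest mean FPKM and the highest ratio to its parent. RPS28P7 lies at chr11:82689559-82689768 on the plus strand, within an intron of MIR4300HG, a noncoding gene on the opposite strand. All of its 210 bases equalled the coding sequence of RPS28, including the stop codon, so no capitals are shown.
RPS28: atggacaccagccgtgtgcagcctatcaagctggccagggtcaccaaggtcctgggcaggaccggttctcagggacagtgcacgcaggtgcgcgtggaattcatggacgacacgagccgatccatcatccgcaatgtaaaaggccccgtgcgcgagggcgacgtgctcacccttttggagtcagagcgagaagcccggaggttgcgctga
RPS28P7: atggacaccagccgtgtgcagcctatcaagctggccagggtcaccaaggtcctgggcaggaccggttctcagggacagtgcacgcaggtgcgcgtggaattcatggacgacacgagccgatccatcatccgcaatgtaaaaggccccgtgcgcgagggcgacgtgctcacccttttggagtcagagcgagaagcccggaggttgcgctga

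RPL39, which lines the exit tunnel of the large subunit, has the pseudogene RPL39P3 at chr6:73373108-73373263 on the minus strand, within an intron of OOEP on the same strand. It is printed as a 2nd case of identity over the whole length, here 156 bases.
RPL39: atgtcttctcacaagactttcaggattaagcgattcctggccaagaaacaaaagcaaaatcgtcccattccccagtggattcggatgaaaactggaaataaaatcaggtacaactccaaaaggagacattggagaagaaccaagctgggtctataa
RPL39P3: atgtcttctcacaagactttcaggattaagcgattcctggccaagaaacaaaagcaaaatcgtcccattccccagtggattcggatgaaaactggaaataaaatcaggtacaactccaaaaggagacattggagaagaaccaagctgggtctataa

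RPL13P5 was the most diverged of the members named here, with 80.6% identity over its aligned bases. Coding positions 206 to 325 of RPL13, a large-subunit gene, are shown with chr12:6884190-6884309 of RPL13P5 on the plus strand. Capitals mark the 25 mismatches in this window of 120 bases.
RPL13: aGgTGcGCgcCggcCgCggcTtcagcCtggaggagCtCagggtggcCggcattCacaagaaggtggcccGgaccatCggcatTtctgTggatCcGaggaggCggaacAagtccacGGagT
RPL13P5: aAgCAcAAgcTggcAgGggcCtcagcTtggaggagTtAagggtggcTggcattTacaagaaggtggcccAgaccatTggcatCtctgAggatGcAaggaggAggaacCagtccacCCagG

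Members resembled their parents more closely than did the pseudogenes that did not reach 1 FPKM. Identity to the parent mRNA over the aligned bases had a median of 98.1% in the 86 members and of 90.3% in the other 1058 matching entries. An identity of at least 98% was found in 44 of 86 members (51.2%) and in 17 of the 1058 (1.61%). The 649 entries listed at 0 had a median identity of 89.2%, the 46 members of 1 to 5 FPKM had 94.9%, and the 40 members of 5 FPKM or more had 99.2%. Read in the other direction, 24 of the 30 entries with at least 99% identity were members (80%), as were 20 of 31 at 98 to 99% (64.5%), 17 of 122 at 95 to 98% (13.9%) and 4 of 216 under 85% (1.85%). Spearman's rho between identity and mean FPKM was 0.77 over the 86 members and 0.34 over all 1144 entries, across genes that share libraries and, in families, the parent.

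**Figure D1:**
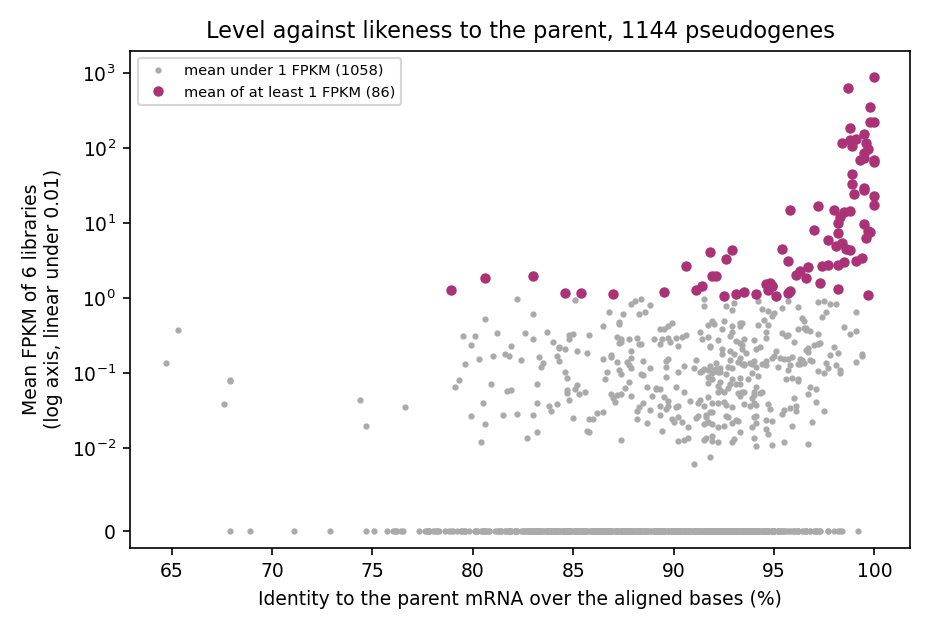
Mean FPKM of the 6 libraries (log axis, linear under 0.01) against identity to the parent mRNA over the aligned bases (percent) for 1144 ribosomal protein pseudogenes, with the 86 members in purple and the 1058 others in grey. The 40 members of 5 FPKM or more had a median identity of 99.2% and entries listed at 0 line the bottom of the plot.

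The same order was seen in stretches of exact sequence. A median of 37.9% of the 50-base words of a member were also in a transcript of its parent, against 0% in the entries under 1 FPKM. RPS28P7, RPL39P3, RPL21P16, RPL41P1 and RPL41P5 equalled the parent over their whole length, and every 50-base word of these 5 occurred in another annotated gene. At the other end, 17 members had no 50-base word in common with the parent, and their highest mean was 4.49 FPKM, whereas the 33 members with at least 50% of their words in the parent had a median of 33.4 FPKM. The frame of the parent was open to the stop codon in 35 of 86 members (40.7%), with a median of 17.3 FPKM, and in 42 of the 1058 others (3.97%). A frame counted as open only if every coding base before the stop was aligned, with a start codon and no frame shift or inner stop. The 51 members in which it was not open had a median of 2.7 FPKM. They include partial copies such as RPL3P4, whose alignment covered 34.9% of the coding sequence. A frame that is not open by this rule therefore need not hold a stop or a frame shift. High likeness did not always come with a high level: RPS26P6 had 99.7% identity to its parent and a mean of 1.11 FPKM.

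Levels were concentrated in a few members. RPS28P7 alone made up 21.4% of the summed mean FPKM of the 86, the first 3 members 44.8%, the first 12 members 78.1% and the first 40 members 97.6%. The mean reads behind a member ranged from 3.17 to 9376, with a median of 62.6, and 20 members had fewer than 20, so the values of the least abundant members carry a large counting error.

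RPS28P7 stood at 504, 540 and 517 FPKM with vector (replicates 1, 2 and 3) and at 2220, 801 and 805 FPKM with MST3. Its groups did not overlap, and MST3 replicate 1 was far above the other 5 libraries. RPS2P5, a copy of the small-subunit gene RPS2, had 472, 448 and 551 FPKM with vector and 848, 541 and 903 FPKM with MST3. Its MST3 replicate 2 lay within the vector range. RPL9P9, a copy of a large-subunit gene, had 397, 339 and 357 FPKM against 315, 355 and 353 FPKM, and its groups overlapped. RPL18AP3, from another large-subunit gene, had 225, 199 and 227 FPKM against 209, 218 and 272 FPKM, also overlapping.

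RPL39P3 had 158, 208 and 237 FPKM with vector and 226, 387 and 132 FPKM with MST3, so that the MST3 group held both its highest and its lowest value. RPS2P46 had 148, 114 and 172 FPKM against 220, 231 and 232 FPKM. All of its MST3 values were above all of its vector values, and the MST3 libraries lay close together. RPL3P4, whose parent encodes a protein near the peptidyl transferase centre, had 175, 141 and 148 FPKM against 157, 155 and 163 FPKM. RPS7P1 had 128, 147 and 141 FPKM against 102, 145 and 126 FPKM. The groups of both overlapped.

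RPLP0P6, a copy of the gene for the base of the ribosomal stalk, had 136, 117 and 131 FPKM with vector and 115, 126 and 144 FPKM with MST3. RPL7P1 had 109, 105 and 93.8 FPKM against 176, 109 and 123 FPKM, with MST3 replicate 1 highest. RPL13P12 had 111, 119 and 117 FPKM against 108, 124 and 116 FPKM. RPL10P16, from a gene whose protein joins the large subunit late in its maturation, had 112, 111 and 102 FPKM against 85.5, 111 and 129 FPKM. RPLP0P6, RPL13P12 and RPL10P16 had overlapping groups. In these 3 the ratio of group means was 1.0, and the 95% intervals of the log2 difference were -0.27 to 0.27, -0.21 to 0.21 and -0.37 to 0.34.

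**Figure D2:**
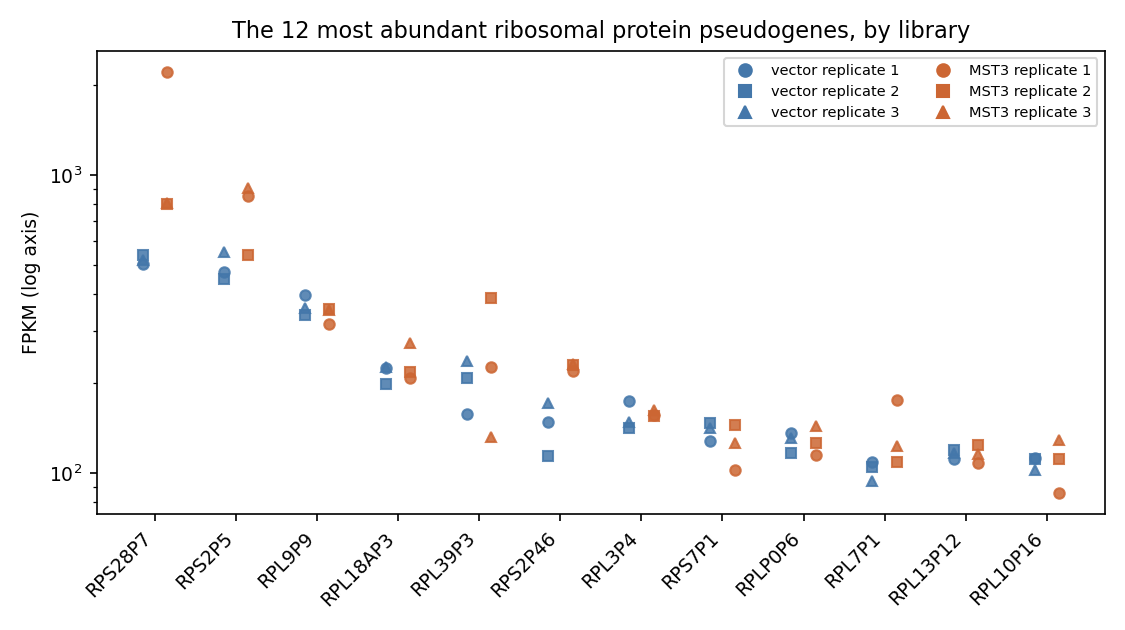
FPKM (log axis) of the 12 members with the highest means, with 1 point per library, vector in blue and MST3 in orange, and the replicate given by the marker shape. RPS28P7 in MST3 replicate 1 is the highest point at 2220 FPKM, and the values of RPS2P46 lie at 114 to 172 in vector and 220 to 232 in MST3 libraries.

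Within the vector group the members differed widely in their spread. Among the 32 members with at least 100 mean reads, the coefficient of variation over the 3 vector libraries was lowest for RPL6P27 (2.54%), RPS28P7 (3.52%), RPL13P12 (3.67%), RPL21P16 (3.99%), RPL23AP82 (4.67%) and RPL10P16 (4.98%). It was highest for RPL29P11 (114%), RPS27AP16 (30%), RPL22P1 (26.7%), RPS2P46 (20.1%), RPL39P3 (19.8%) and RPS20P14 (18.4%). Counting error alone would give 2.96% for RPL6P27 and 4.5% for RPL21P16, more than was seen. For RPS28P7, RPL13P12 and RPL10P16 it would give 2.29, 2.79 and 2.87%, less than was seen. For RPS27AP16 and RPL22P1 it would give 4.51 and 9.09%. The lowest values thus partly reflect read number. RPL29P11 had 5.67, 42.1 and 6.75 FPKM with vector and 6.12, 16.1 and 13.4 FPKM with MST3. Its vector replicate 2 was the highest of the 6.

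Most members stood far below the parent gene. The ratio of the mean FPKM of a member to that of its parent had a median of 0.0316, was at least 0.1 in 30 members and was under 0.01 in 24. FPKM corrects for length, and the length in the table is the union of all annotated exons, with a median of 556 bp in members and 3056 bp in parents. A parent whose reads fall on a short part of that union is given a low FPKM, so these ratios move with the annotated length. RPS28 is listed with 2119 bp, although its coding sequence has the 210 bases shown above, which is also the whole length of RPS28P7.

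RPS28P7, RPL9P9, RPL39P3 and RPS7P1 were above the parent in FPKM, by 9.78, 3.17, 2.33 and 1.5 times, and the other 82 members were below it. In reads the picture differed, with RPS28P7 at 0.946 times RPS28, and 1 member, RPS10P7, had more reads than its parent (1.26 times). RPS10P7 has a length of 3018 bp, of which the transcript aligned to RPS10 over 24.9%, and RPS10 itself was listed at 0.916 to 1.34 FPKM. RPS10 is 1 of 6 parents that share exon bases on the same strand with another protein-coding gene, as is RPL36A, the parent of RPL36AP43 (ratio 0.816). RPL22P1, with 0.681, and RPL18AP3 complete the 8 highest ratios. Across the 86 members, Spearman's rho between the FPKM of the parent and that of the member was 0.22.

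**Figure D3:**
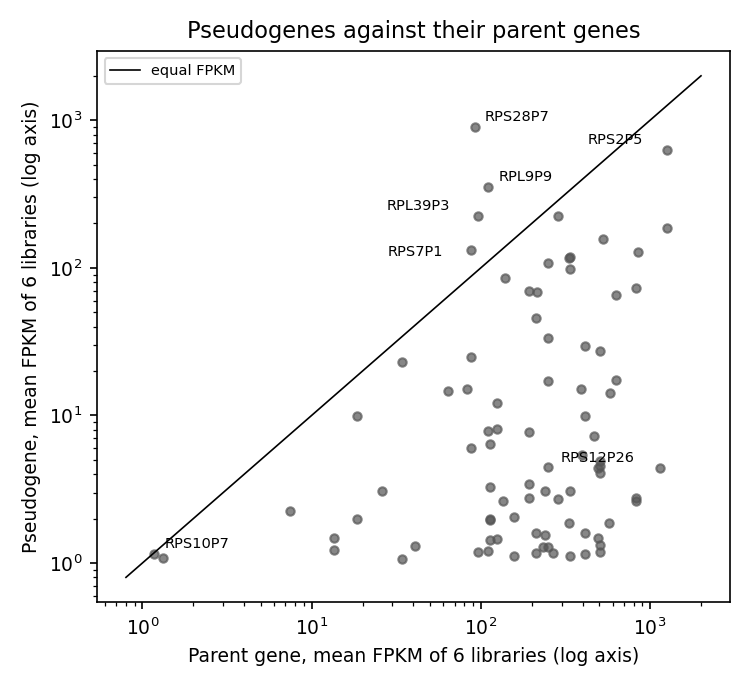
Mean FPKM of the 6 libraries for each of the 86 members against that of its parent gene, both on log axes, with a line at equal FPKM. RPS28P7, RPL9P9, RPL39P3 and RPS7P1 lie above the line, and the median ratio was 0.0316.

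The comparison of MST3 with vector asked whether overexpression of the kinase changed the members. No member passed the test over all genes (limma, smallest adjusted p = 0.719), where the share of all 13036 tested genes called was 0.00767%, that is STK24 alone. At an unadjusted p under 0.05 there were 11 of 86 members (12.8%), against 5.38% of all genes, and 12 by limma voom on the recovered reads, which also called 0 members. Of the 11, 7 were higher (all genes 3.51%) and 4 were lower (1.86%). The 377 other processed pseudogenes of at least 1 FPKM gave 46 (12.2%), a share close to that of the members. Groups did not overlap in 12 members, 7 higher and 5 lower, which is 14% against 11.9% of all genes (5.19% higher and 6.7% lower). The log2 difference was above 0 in 50 members and below 0 in 36, with a median of 0.05, and 46.6% of all genes were above 0, with a median of -0.01. For 54 of the 86 members the 95% interval lay within 1 log2 unit of 0, and for the other 32 it reached beyond 1 log2 unit on at least 1 side. The level rule bears on these counts, since 8 members had a mean under 1 FPKM in 1 of the groups and reached the level through the other. They included RPL38P4 and RPL35P1 among the 11, and RPL38P4 and RPL7P50 among the 12. The remaining 78 members gave 9 with an unadjusted p under 0.05 and 10 with separate groups.

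RPS2P46 had the smallest p of any member. It was at 144 ± 29.1 FPKM with vector and 228 ± 6.91 FPKM with MST3 (SD, n = 3 each), with a log2 difference of 0.67 (SE 0.15, limma adjusted p = 0.719). RPS2P5 was at 490 ± 53.7 and 764 ± 195 FPKM (SD, n = 3 each), with a log2 difference of 0.61 (95% interval 0.13 to 1.08). RPS2 had 1170, 898 and 1130 FPKM with vector and 1713, 1082 and 1579 FPKM with MST3, a log2 difference of 0.43 (95% interval -0.02 to 0.89). The parent and both pseudogenes thus had higher MST3 means, and none passed over all genes. Relative to RPS2, RPS2P46 was 0.126, 0.127 and 0.152 with vector and 0.128, 0.214 and 0.147 with MST3, and these ratios overlapped.

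RPS28P7 was at 521 ± 18.3 FPKM with vector and 1275 ± 818 FPKM with MST3 (SD, n = 3 each), a log2 difference of 1.11 (95% interval 0.24 to 1.99, limma adjusted p = 0.719). Without MST3 replicate 1 the difference was 0.62. The mean of the parent was lower with MST3, within its interval. RPS28 had 90.7, 106 and 94.6 FPKM with vector and 61, 100 and 98.1 FPKM with MST3, a log2 difference of -0.20 (95% interval -0.65 to 0.26). RPS28P7 took 35.5, 33.5 and 35.2% of the reads assigned to RPS28 and RPS28P7 together with vector and 78.3, 44.2 and 44.9% with MST3. The reads of the pair together numbered 5239, 5806 and 5393 with vector and 9498, 6607 and 6459 with MST3. This total was thus also higher with MST3, without overlap. Since the sequences are the same over all bases of RPS28P7, a read within them could come from either gene, and the split of these reads between the copies was not tested.

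**Figure D4:**
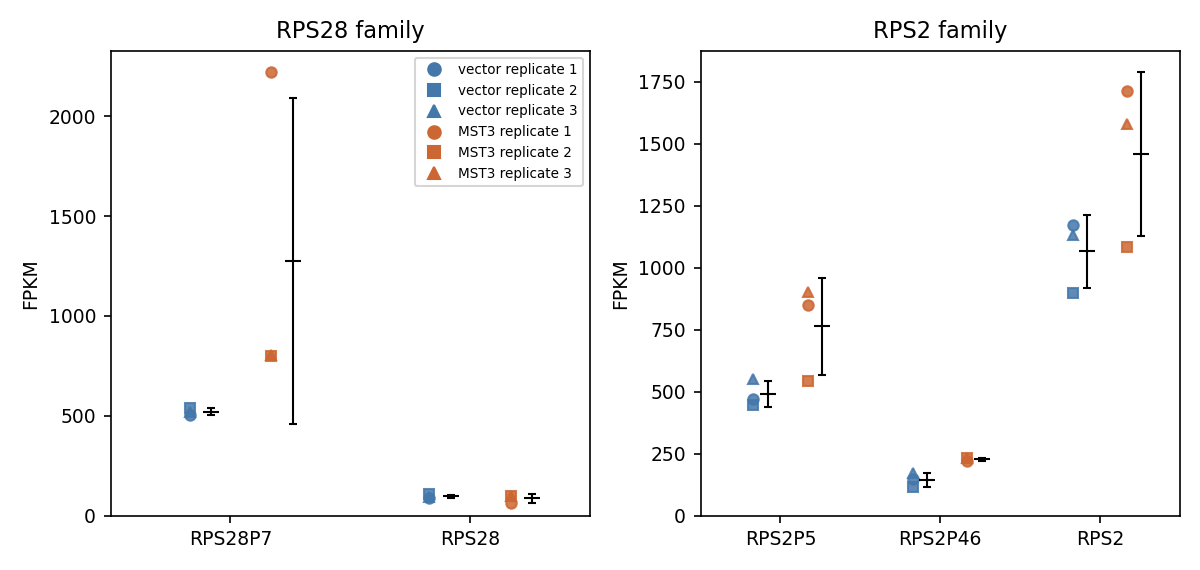
FPKM of RPS28P7 and its parent RPS28 (left) and of RPS2P5, RPS2P46 and their parent RPS2 (right), with 1 point per library and the mean ± SD of each group of 3 as a black bar. RPS28P7 reaches 2220 FPKM in MST3 replicate 1, where RPS28 has its lowest value of 61 FPKM, and RPS2P46 shows no overlap of its groups.

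The other members with separate and higher MST3 values had smaller differences or lower levels, among them RPL7P1, given above. RPS7P11 had 24.3, 22.4 and 22.1 FPKM with vector and 27.5, 25.9 and 26.6 FPKM with MST3. The difference was 0.21 on the log2 scale, with narrow spread in both groups. It rests on 225 to 267 reads per library. The coefficient of variation in vector, 5.14%, was under the 6.54% that counting error alone would give, so the narrow spread does not make the separation firm. RPL23AP42 had 3.87, 4.95 and 3.16 FPKM against 15, 5.01 and 6.44 FPKM. RPL13AP25 had 0.93, 1.81 and 1.69 FPKM against 7.58, 2.16 and 2.48 FPKM. RPL23AP42, RPL13AP25 and RPL13AP5 (53 to 60.1 FPKM against 63.7 to 133 FPKM) had their highest value in MST3 replicate 1. Without this library their log2 differences were 0.44, 0.44 and 0.25, in place of 0.86, 0.90 and 0.57.

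The members with lower and separate MST3 values were all under 10 FPKM. RPL38P4 had 3.19, 1.64 and 1.61 FPKM with vector and 0.293, 1.08 and 0 FPKM with MST3, with means of 8 and 1.67 reads, a log2 difference of -1.14 (SE 0.31, limma adjusted p = 0.719). Such counts leave a wide error, and the difference was -3.78 with a pseudocount of 0.01. The parent RPL38 had 24.2 to 28.8 FPKM with vector and 105, 31.9 and 29.9 FPKM with MST3, so the means of the pair differed with opposite signs, and neither passed. RPL7P23 (log2 difference -0.67), RPS3AP47 (-0.44), RPL10AP6 (-0.51) and RPL7P50 (-0.23) were the others, and each had an adjusted p of 0.719. The difference of RPL10AP6 was -0.21 without MST3 replicate 1, and that of RPL7P23 was -0.41 without MST3 replicate 2. RPL38P4 and RPL7P50 had MST3 means of 0.456 and 0.95 FPKM and so reached the level through the vector group.

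Parent genes and ribosomal protein genes held no call. Among the 46 parents, 0 passed over all genes, 2 had an unadjusted p under 0.05, 32 were higher and the median log2 difference was 0.08. Of 87 genes for cytosolic ribosomal proteins, 84 were tested and 0 passed, with 64 higher and a median of 0.12. Without MST3 replicate 1 the medians were 0.01 for the parents, 0.03 for the cytosolic ribosomal protein genes and 0.01 for the members, and without MST3 replicate 2 that of the members was 0.12.

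Summed over members, the FPKM was 3530, 3462 and 3585 with vector and 6141, 4099 and 4348 with MST3 (replicates 1, 2 and 3). The sums did not overlap, and MST3 replicate 1 was the highest. The sum made up 1.21, 1.21 and 1.32% of all FPKM with vector and 2.09, 1.5 and 1.58% with MST3. Relative to the summed FPKM of the 46 parents it was 0.266, 0.273 and 0.28 with vector and 0.391, 0.319 and 0.319 with MST3. The median over members of the ratio to the parent did overlap between groups. It was 0.0283, 0.0299 and 0.029 with vector and 0.0367, 0.0345 and 0.0268 with MST3. The separation of the sums thus does not hold for the typical member. The group means of the sum were 3526 ± 61.7 and 4862 ± 1114 FPKM (SD, n = 3 each), a ratio of 1.38, against 1.09 for the parents. Most of this came from the abundant members already described, since the ratio was 1.19 without RPS28P7 and 1.10 without RPS28P7, RPS2P5 and RPS2P46. Without MST3 replicate 1 the ratio of all members was 1.20.

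MST3 replicate 1 stood apart from the other 5 libraries in the members as a set. It had the highest value in 37 of 86 members (43%) and in 31 of 46 parents (67.4%), against 18.1% of all tested genes. The log2 deviation of a member from the mean of the vector libraries had an SD of 0.89 in MST3 replicate 1. The SD was 0.48 and 0.40 in MST3 replicates 2 and 3, and 0.29 to 0.31 in the vector libraries. Each vector library is part of that mean, which makes its deviations smaller, so vector and MST3 SDs are not directly comparable. Over all genes these SDs were 0.35, 0.25 and 0.33 in the MST3 libraries. In MST3 replicate 1, 16 members (18.6%) lay more than 1 log2 unit from the vector mean, 13 of them above it, where the share of all genes was 2.12%. The 377 other processed pseudogenes were also widely spread there, with an SD of 0.73 and 47 (12.5%) beyond 1 log2 unit, and the difference between the lists was not tested. In MST3 replicate 2 there were 6 such members (6.98%, all genes 1.27%) and in MST3 replicate 3 there was 1 (1.16%, all genes 1.57%). Each vector library had 1 such member, against 0.345% of all genes in vector replicate 1 and 0.414% in vector replicates 2 and 3. These vector counts and shares are lowered by the shared mean in the same way.

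**Figure D5:**
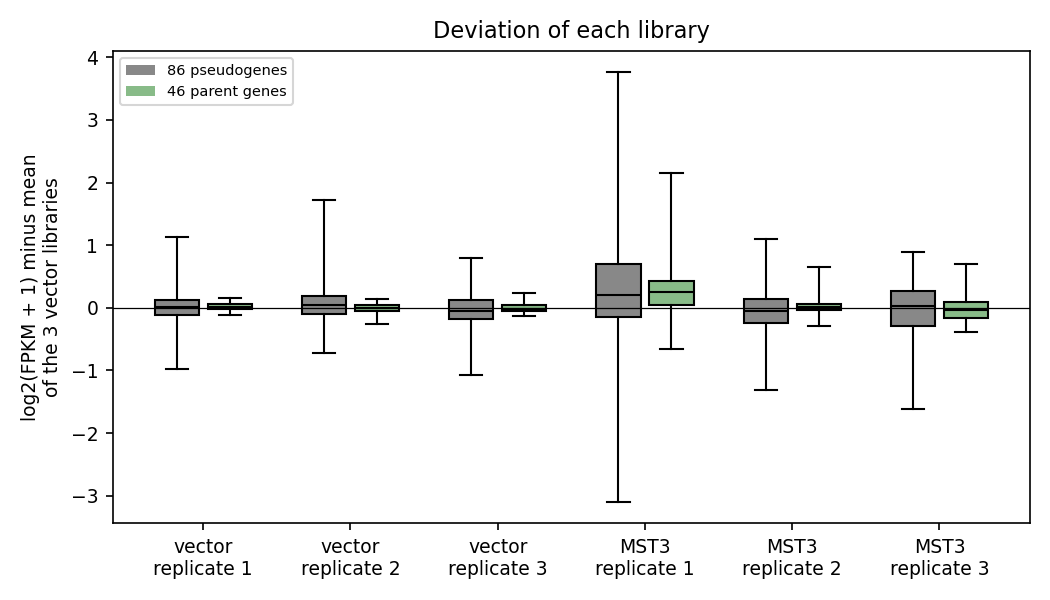
Log2(FPKM + 1) of each library minus the mean of the 3 vector libraries, for the 86 members (grey) and their 46 parents (green), as boxes from the lower to the upper quartile with the median and whiskers to the lowest and highest values. The members in MST3 replicate 1 have the widest spread, with an SD of 0.89. Each vector library is part of the mean it is compared with, which narrows its spread.

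Single members stood far from the other libraries there. RPL24P4, from a large-subunit gene, had 1.76, 4.02 and 3.54 FPKM in the vector libraries, 52.9 FPKM in MST3 replicate 1 and 7.52 and 2.91 FPKM in MST3 replicates 2 and 3. RPL41P1, a copy of the gene for the smallest ribosomal protein with a length of 81 bp, reached 192 FPKM there and lay at 25.9 to 54.7 FPKM elsewhere. RPL34P18 went the other way, with 1.42 FPKM in MST3 replicate 1 against 15.4 to 22.4 FPKM with vector and 7.32 and 21.6 FPKM in the other MST3 libraries. The parents RPL24, RPL41 and RPL34 each had their highest value in MST3 replicate 1, at 180, 1118 and 107 FPKM. In the other libraries they lay at 112 to 115, 469 to 635 and 71.6 to 84.9 FPKM. The 3 pseudogenes had overlapping groups. They were picked out once their values were known. In addition, 351 of the 1144 matching entries had a read in this library, and 266 to 294 had one in each of the others. It had the fewest reads and the most genes with a read, 27442 against 25099 to 25501.

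Length moved with the deviation in the same library. Members under 500 bp (40 of 86) had a median log2 deviation of 0.51 in MST3 replicate 1, those of 500 to 1000 bp (37) had 0.15 and the 9 longer members had -0.01. All tested genes under 500 bp had 0.20 there, and those of 1000 bp or more had -0.05. Spearman's rho between length and deviation in MST3 replicate 1 was -0.22 over members and -0.31 over all genes. In the other libraries it lay between -0.13 and 0.10 for members. Over all genes it lay there between -0.16 (MST3 replicate 3) and 0.08 (vector replicate 2). The part of length, or of this library, in the differences between groups was not tested.

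Families with several members held copies at very different levels. RPSA, a small-subunit gene also known for the laminin receptor, had 6 members, from RPSAP58 at 27.5 FPKM to RPSAP72 at 1.18 FPKM, with identities of 99.5% and 84.6%. RPL23A, whose protein lies at the tunnel exit, had 5 members from RPL23AP42 (6.41 FPKM, 99.6%) to RPL23AP53 (1.44 FPKM, 91.4%). Each of RPL7, RPL21 and RPS3A had 4 members. In RPL7 they ran from RPL7P1 (119 FPKM, 99.6%) to RPL7P50 (1.12 FPKM, 93.1%), in RPL21 from RPL21P16 (69.9 FPKM, 100%) to RPL21P93 (2.75 FPKM, 98.2%) and in RPS3A from RPS3AP6 (29.5 FPKM, 99.5%) to RPS3AP38 (1.15 FPKM, 87%). In all 5 families the most abundant member had a higher identity than the least abundant.

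The annotated surroundings of the members varied. There were 33 members that overlapped no other annotated gene, 22 within an intron of a gene on the same strand, 21 within an intron of a gene on the opposite strand only, 6 that overlapped exons on the opposite strand only and 4 that shared exon bases with a gene on the same strand. The median level was 6.02 FPKM in the first of these classes, 3.2 FPKM in the same-strand introns and 5.37 FPKM in the opposite-strand introns. RPL18AP3 (225 FPKM) lies in an intron of TXNRD1, a thioredoxin reductase gene, which stood at 86.3 FPKM. The other hosts on the same strand ranged from 0 to 37.2 FPKM, the highest being SEMA4B around RPS12P26 (4.41 FPKM). Among the 5 most abundant members that share a strand with a host, the other 4 had hosts at or near 0. OOEP, around RPL39P3, was listed at 0 in all libraries, as were AC010422.3, which shares exon bases with RPL10P16 (108 FPKM), and AC139769.1, around RPSAP58. AC004448.2, around RPS2P46 (186 FPKM), had a mean of 0.0532 FPKM.

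The 12 members annotated as transcribed were mostly at low levels and long. RPL9P9 (353 FPKM), RPL6P27 (68.6 FPKM) and RPS27AP16 (45.9 FPKM; its parent encodes ubiquitin fused to a small-subunit protein) were the abundant ones. RPS12P26 and RPSAP52 had 4.41 and 4.10 FPKM. RPL32P3, RPL23AP82, RPL26P30, RPL23AP7, RPL13P5, RPL23AP53 and RPS10P7 had means of 1.15 to 2.06 FPKM and lengths of 1023 to 4504 bp. In RPL32P3 the aligned part was 3.62% of the transcript and in RPL23AP82 17.3%, so most of either transcript did not align to the parent. RPL23AP82 lay between 1.71 and 2.14 FPKM in all 6 libraries.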

How the data were processed

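RNA from 6 libraries (3 vector, 3 MST3) was measured by RNA sequencing. The authors deposited FPKM values for 58938 entries, with positions, lengths and biotypes. Per the submitters' processing notes HISAT2 was used, with version, counting, strand setting, build and annotation not given in the sources used here. All 58735 entries with an Ensembl identifier matched GENCODE 29 on GRCh38 in position. FPKM multiplied by length was a whole multiple of 1 step per library in 100.0% of values (tolerance 0.01), which gave the reads, and 1 read on 1 kb was worth 0.0569 to 0.0627 FPKM.

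Log2(FPKM + 1) was tested with limma 3.58.1 in R 4.3.3 (lmFit, eBayes with trend), two-sided, over the 13036 genes whose mean reached 1 FPKM, with Benjamini-Hochberg adjustment over all of them and a threshold of 0.05. Fold changes on this scale understate the change of low genes. For a single gene, 3 libraries against 3 allow no exact permutation p under 0.1. Intervals are 95% intervals from limma.

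Member transcripts were aligned locally to the protein-coding transcripts of the parent (Biopython 1.88, match 2, mismatch -3, gap opening -5, extension -2). Words of 50 and 100 bases were compared exactly, on the strand of the transcripts. Hosts and exon overlaps came from GENCODE 29. Python 3.11.15, pandas 2.3.3, numpy 2.4.6, scipy 1.17.1 and matplotlib 3.10.9 were used.

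The members and lists were chosen with earlier results of these data known. Named members were the 12 with the highest mean, up to 6 per direction with the smallest p and separate groups, the 8 highest ratios to the parent, every member above its parent, the 6 most and 6 least variable in vector libraries with at least 100 reads, 3 on either side of 1 FPKM, members of other biotypes, the 5 most abundant within another gene on the same strand, and the extremes of the largest families. RPL35P1, RPL41P1, RPL41P5, RPL24P4 and RPL34P18 are outside this rule and were picked once their values were known. The alternatives were the pseudocount, filter, scaling, variance trend, replicate block, voom on the recovered reads, and each library left out.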

Additional observations from a re-analysis of the deposited data

How the results depend on the processing

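STK24 was called and 0 members were called under all 16 alternatives to the fit over all genes. The 12 members tested by name kept their direction in each one that could be computed for them. All of these except RPS2P5 were picked from these data for separate groups, so leaving out 1 library could not reverse their sign. Their direction is therefore a description and lends no support. The adjusted p of RPS2P46 ranged from 0.214 to 0.999 and that of RPS28P7 from 0.216 to 0.999. The median difference of the members stayed between 0.01 and 0.12. Counts of members with an unadjusted p under 0.05 moved from 11 of 86 to 6 of 40 with a filter of 5 FPKM and to 6 of 86 with none. Among the same 86 they moved to 18 without MST3 replicate 3, to 7 without vector replicate 1 and to 5 without vector replicate 2. Over all genes the count moved from 701 to 1190 with a filter of 0.1 FPKM, to 394 with 5 FPKM and to 1462 with none. The filter also changes how many genes are tested, and that number is not given for these filters. The member counts under them therefore cannot be set against a share of all genes. On leaving out libraries, with 13036 genes tested, the count ranged from 298 (without vector replicate 2) to 2554 (without MST3 replicate 2). It was 869 without MST3 replicate 3, 452 without MST3 replicate 1 and 444 without vector replicate 1. Members with separate groups numbered 7 with a filter of 5 FPKM, where 40 were tested, and up to 26 with a library left out, since smaller groups overlap less. The share of all genes with separate groups is not given for these settings, so these counts cannot be read against a background. The median of the other processed pseudogenes was 0.01, and ranged from -0.04 (without MST3 replicate 1) to 0.05. The same-numbered libraries had correlations of 0.02, 0.23 and 0.04 in their deviations from the group means, and the unlike-numbered ones -0.15 to 0.12. These values do not settle whether the numbers are pairs. The labels state no pairs, so the main fit used none. With the replicate block 1 gene was called, 1338 genes and 15 members had an unadjusted p under 0.05, and the median of the members was 0.05.

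The median ratio of member to parent, 0.0316, was 0.0429 as a ratio of FPKM + 1, 0.166 for members of at least 5 FPKM and 0.0164 for those of at least 0.5 FPKM. The share of words also in the parent fell from 37.9% for 50 bases to 8.56% for 100 bases, since a longer word is broken by a mismatch more often. Depth limits the least abundant members most: 20 of 86 rest on fewer than 20 mean reads. The sum without RPS28P7, RPS2P5 and RPS2P46 was added after seeing the data.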
